A study of Mus musculus with 9 samples.

Results

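Immunoglobulin chain genes are the germline segments and constant regions from which antibody heavy chains, kappa light chains and lambda light chains are built. Their transcripts were followed in RNA from sorted mouse bone marrow haematopoietic stem cells (HSCs). A row of the gene table was taken when its symbol named a heavy, kappa or lambda variable, diversity, joining or constant segment, or when its gene name contained immunoglobulin heavy, kappa or lambda, and Igll1 was left out. The rule took 148 of 19454 listed genes. Of these, 146 are chain segments, and the other 2, Rbpj and Rbpjl, matched only through gene names that mention the kappa J region. Both encode DNA-binding proteins and not antibody chains, so they are described apart at the end. The 146 segments comprise 49 of the heavy chain locus (7 constant, 38 variable, 4 joining), 89 of the kappa locus (1 constant, 84 variable, 4 joining) and 8 of the lambda locus (3 constant, 3 variable, 2 joining). No row of a diversity segment was taken by the rule. GENCODE M21 annotates 395 immunoglobulin genes and pseudogenes in mouse, and those without a row are not analysed here.

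All 9 libraries came from wild-type mice, and each was made from 1500 HSCs sorted from the marrow of femora and tibiae and amplified with 12 PCR cycles. The control group (3 libraries) has no brain intervention named in the labels. The inhibition group (3 libraries) came from mice in which mPFC (medial prefrontal cortex) and PAG (periaqueductal grey) neurons were inhibited chemogenetically. The spermidine group (3 libraries) had the same inhibition and a spermidine supplement. Library names carry the tag AAV, a viral vector, in both of these groups. Effects of the virus or of the activating drug therefore cannot be told apart from those of neuronal silencing. Strain, sex, age, time of treatment, sort markers, batch and the animals behind each library are not given in the sources used here. The p-values below measure only the spread between these libraries, which may be technical.

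In a developing B cell, one variable, one joining and, on the heavy chain, one diversity segment are cut and joined by the RAG recombinase, and the joined exon is spliced to a constant region. Ighm and Ighd encode the constant regions of IgM and IgD, which a B cell makes first. Class switch recombination in activated B cells later replaces them with Ighg, Ighe or Igha, and plasma cells, many of which reside in marrow, transcribe the finished genes at very high levels. HSCs stand upstream of this programme.

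The HSC label was set against 10 HSC genes, which were all tested. Their summed level was 252 to 259 CPM (the count relative to library size, scaled with edgeR's TMM factors) in control, 309 to 321 in inhibition and 407 to 409 in spermidine libraries. In inhibition against control 7 of the 10 were higher and 2 lower, while 36.2% of all genes tested were called higher and 36.1% lower. The genes of the list that encode surface proteins did not point one way. Procr averaged 0.125 CPM in control, 4.10 in inhibition and 7.59 in spermidine libraries. Ly6a averaged 6.21, 83.5 and 94.5 CPM and Cd34 9.21, 55.7 and 78.7 CPM. By contrast, Slamf1 averaged 104, 17.6 and 13.8 CPM and Kit 43.3, 36.5 and 46.5 CPM. Slamf1, Kit and the transcription factor Meis1 (85.8, 81.3 and 113 CPM) made up most of the control sum. Hlf, another transcription factor, averaged 2.50, 22.3 and 37.6 CPM. Summed levels of 10 neutrophil genes were 5053 to 5313 CPM in control, 58640 to 60430 in inhibition and 20750 to 21400 in spermidine libraries. Elane and Mpo, at 3006 and 972 CPM on average, made up most of that control sum. In inhibition against control their log2 fold changes were 1.58 and 1.18, beside a median of 5.71 over the 10 genes. Total counts ran from 16096117 to 25360110 per library, at which a count of 0 allows up to 0.117 to 0.184 CPM (3 counts, counting error only).

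The germline sequences below are those of some light chain segments described further on. They were read from the GENCODE M21 transcripts of GRCm38 (mm10) and are written 5′ to 3′ on the coding strand. First come the kappa and lambda joining segments, because their relative use differed between the inhibition and spermidine groups. Capitals mark the phenylalanine and glycine codons that open the conserved motif of every light chain joining segment.
Igkj1, chr6:70722562-70722599, plus strand: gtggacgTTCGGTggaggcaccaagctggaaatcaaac
Igkj2, chr6:70722916-70722954, plus strand: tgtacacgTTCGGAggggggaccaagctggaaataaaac
Igkj4, chr6:70723548-70723585, plus strand: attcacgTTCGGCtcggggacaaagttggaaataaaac
Igkj5, chr6:70723886-70723923, plus strand: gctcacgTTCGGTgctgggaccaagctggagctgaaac
Iglj1, chr16:19063225-19063262, minus strand: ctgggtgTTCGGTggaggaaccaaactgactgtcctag
Iglj3, chr16:19067041-19067078, minus strand: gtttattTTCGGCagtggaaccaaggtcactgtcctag

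Next come 3 pairs of kappa variable segments of the same family in which the first named was higher and the second lower with spermidine. The pairs were chosen after their values were seen. The last 60 bases of each coding sequence are shown, which hold the codons that enter the antigen-binding loop next to the joining segment. Capitals mark the bases that differ within the pair. Igkv12-41 and Igkv12-44 are 95.7% identical over their coding sequences and differ at 5 of these 60 bases. Igkv14-126 and Igkv14-111 are 91.5% identical and differ at 12, and Igkv4-79 and Igkv4-78 are 96.4% identical and differ at 9.
Igkv12-41, chr6:69858420-69858479, minus strand: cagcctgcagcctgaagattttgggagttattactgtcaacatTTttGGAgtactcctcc
Igkv12-44, chr6:69814631-69814690, minus strand: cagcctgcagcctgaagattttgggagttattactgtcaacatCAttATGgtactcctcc
Igkv14-126, chr6:67896583-67896642, plus strand: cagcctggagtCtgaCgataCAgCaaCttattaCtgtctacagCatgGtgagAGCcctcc
Igkv14-111, chr6:68256810-68256869, plus strand: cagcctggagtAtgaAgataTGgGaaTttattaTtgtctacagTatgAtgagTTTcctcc
Igkv4-79, chr6:69042972-69043031, minus strand: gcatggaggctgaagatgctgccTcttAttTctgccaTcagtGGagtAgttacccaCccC
Igkv4-78, chr6:69059690-69059749, minus strand: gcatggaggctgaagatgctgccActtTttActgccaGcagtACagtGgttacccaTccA
Such likeness matters for counting. Of the 125 variable members, 62 have another annotated segment of their locus with at least 95% identity, and the closest match had a median identity of 94.97% (range 57.6 to 99.2%). Reads of near-identical segments may have been shared between rows, so single rows of such pairs are uncertain.

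Immunoglobulin transcripts were close to absent from the control libraries and present in quantity in both inhibition groups. The 146 segments together took 0.00263% ± 0.000084 of counts in control (SD, n = 3), 0.638% ± 0.0146 in inhibition and 0.308% ± 0.0109 in spermidine libraries. Of the 146, 80 had no count in any control library. In inhibition against control, 105 of the 107 segments that passed edgeR's filter on low counts were called higher (threshold of 0.05 on p adjusted by Benjamini-Hochberg across the 14461 genes that edgeR's quasi-likelihood test covered) and 0 were lower, while 36.2% of all genes tested were called higher and 36.1% lower. In spermidine against control all 107 tested segments were higher, beside 41.0% of all genes called higher and 37.1% lower. Segments at 0 in control passed the filter only through the groups where they were high, so the share called among those tested says little, and without the filter 136 of 146 were higher and 0 lower in inhibition against control, beside 29.2% of all 19454 genes called higher and 29.1% lower. In these bulk libraries more cells that transcribe the loci and more transcript per cell cannot be told apart.

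The levels in the spermidine group lay between those of control and inhibition for most segments. In spermidine against inhibition 81 of 107 tested segments were lower, 12 were higher and 14 were not called, while 28.9% of all genes tested were called lower and 29.1% higher. Segments near 0 in either group passed the filter only through the other group, which bears on these counts of calls. The median log2 fold change of the tested segments was -1.35, beside 0.03 over all genes tested. With total-count scaling in place of TMM the median over all genes moved by 0.26 in this comparison, and 72 segments were then lower and 14 higher. Among tested segments 15 of 28 heavy, 59 of 71 kappa and 7 of 8 lambda members were lower, with medians of -0.57, -1.61 and -1.40. The difference between loci was not tested.

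**Figure D1:**
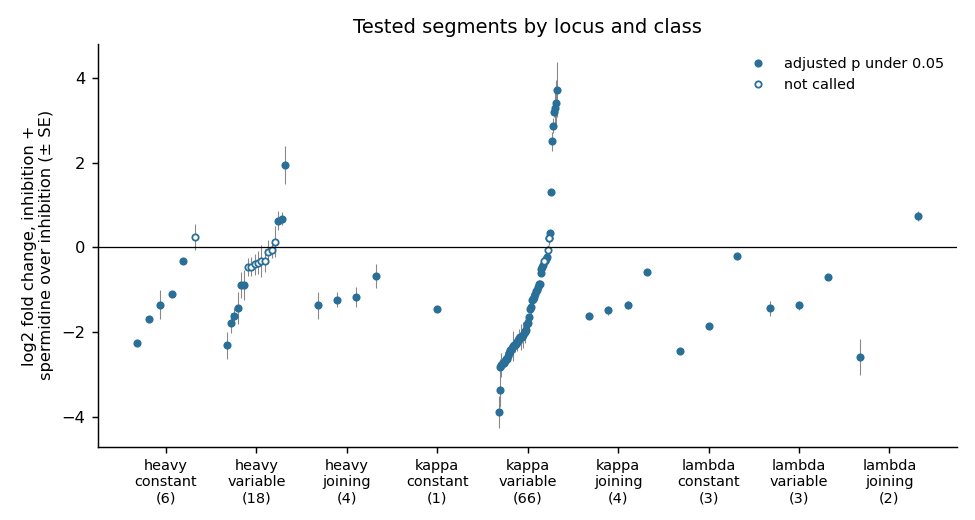
Log2 fold change of spermidine over inhibition libraries (y axis, with its standard error) for the 107 tested segments by locus and class, with the number tested in brackets. Most points lie below 0, kappa variable segments span -3.89 to 3.72, and open points mark the 14 segments that were not called.

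Among heavy constant regions, Ighm was the one transcript with more than traces in control. Control libraries held it at 19.1, 16.2 and 17.9 CPM, inhibition libraries at 74.7, 70.9 and 75.4 CPM, and spermidine libraries at 57.7, 58.4 and 59.4 CPM. The 3 groups do not overlap. Ighm rose by 2.05 ± 0.05 (log2 fold change ± SE, edgeR adjusted p = 1.2e-15) in inhibition against control. It was 0.33 lower on the log2 scale with spermidine than with inhibition alone (log2 fold change -0.33 ± 0.04, edgeR adjusted p = 8.4e-06), a call that was lost under total-count scaling (-0.070, adjusted p = 0.17).

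The switched isotypes had larger fold changes than Ighm. Igha, the constant region of IgA, the main antibody of mucosal surfaces, was at 0.182, 0.483 and 0.361 CPM in control, at 238, 240 and 251 CPM in inhibition and at 73.6, 77.6 and 76.2 CPM in spermidine libraries. Every inhibition library lay above every spermidine library, and every spermidine library above every control. The log2 fold change of Igha was 9.42 ± 0.09 in inhibition against control and -1.68 ± 0.04 in spermidine against inhibition. The genes of 2 IgG subclasses behaved similarly. Ighg2b was at 0.0607, 0.0536 and 0.206 CPM in control, 137 to 138 CPM in inhibition and 60.5 to 67.4 CPM in spermidine libraries. Ighg2c was at 0.103 to 0.214 CPM in control, 124 to 127 CPM in inhibition and 24.7 to 27.7 CPM in spermidine libraries. With spermidine Ighg2c fell by 2.26 ± 0.04 and Ighg2b by 1.10 ± 0.04 on the log2 scale relative to inhibition alone.

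The remaining heavy constant regions were rare. Ighg3, another IgG subclass, was at 0 to 0.0607 CPM in control, 1.08 to 1.29 CPM in inhibition and 0.313 to 0.775 CPM in spermidine libraries, and it was called in all 3 comparisons. Its ratio of inhibition to control was 32.1 with a 95% counting interval of 8.56 to 270, since the controls held 3 counts or fewer in all. Ighd, which follows Ighm on the same primary transcript, was at 0.0607 to 0.322 CPM in control, 0.738 to 0.85 CPM in inhibition and 0.847 to 1.16 CPM in spermidine libraries. Ighd was higher in inhibition than in control (log2 fold change 1.72 ± 0.41, edgeR adjusted p = 0.0014), and the inhibition and spermidine groups were not told apart (0.24 ± 0.30, adjusted p = 0.51). Ighe, the constant region of IgE, did not pass the filter and reached at most 0.35 CPM in any library. Ighg1 is not analysed here.

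Per unit length, the mix of heavy constant regions went from almost all Ighm to mostly switched. Ighm held 93.8% ± 2.65 of heavy constant TPM (abundance scaled for transcript length and depth) in control, 8.88% ± 0.161 in inhibition and 18.8% ± 0.370 in spermidine libraries (SD, n = 3). The switched isotypes together held 4.88% ± 1.56, 91.1% ± 0.157 and 81.0% ± 0.358. Igha held 46.6, 47.0 and 47.9% with inhibition alone, against 40.1, 40.3 and 39.6% with spermidine. Ighg2b held 23.6% ± 0.5001 in inhibition and 29.4% ± 0.931 in spermidine, whereas Ighg2c held 20.02% ± 0.352 and 11.3% ± 0.686. The ratio of Ighg2b to Ighg2c TPM was 1.16, 1.21 and 1.17 in inhibition and 2.47, 2.48 and 2.91 in spermidine libraries, so the groups do not overlap. The control shares of the switched isotypes rest on a few counts per library.

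**Figure D2:**
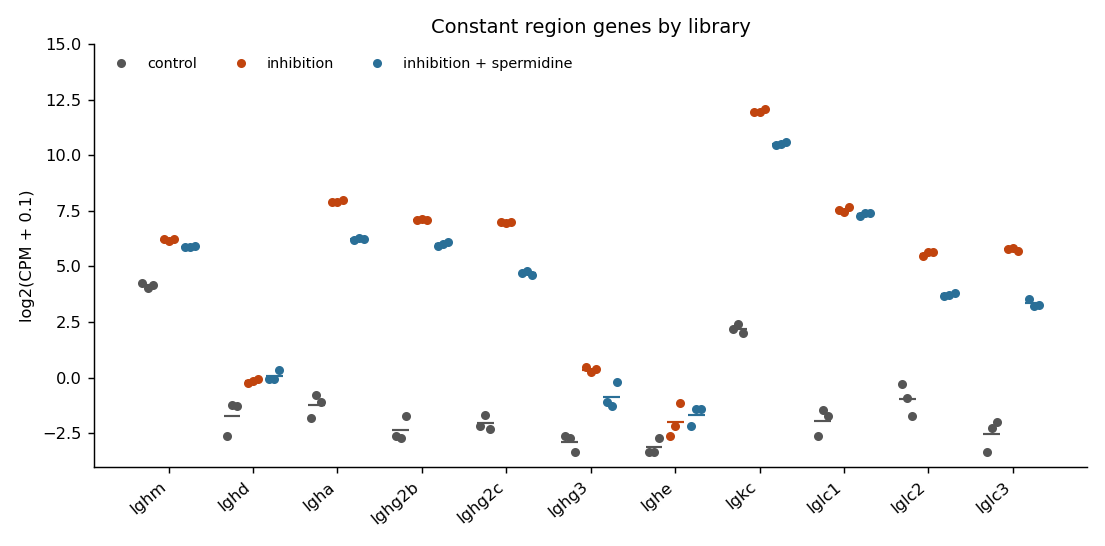
Levels of the 11 constant region genes as log2(CPM + 0.1) by library (points) with the group mean of these log values (lines), for control, inhibition and spermidine. Ighm and Igkc are the genes seen clearly in control, and Igkc reaches 3877 to 4276 CPM in inhibition.

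Igkc, the single kappa constant region (chromosome 6, 70726435 to 70726966, plus strand), carried the largest part of the immunoglobulin counts in the inhibition libraries (0.379% of all counts, of 0.638%) and the spermidine libraries (0.166% of 0.308%), and not in control (0.000426% of 0.00263%), where heavy constant genes held 0.00175%. It was at 4.49, 5.15 and 3.97 CPM in control, at 3935, 3877 and 4276 CPM in inhibition and at 1417, 1461 and 1539 CPM in spermidine libraries. No library of one group reached the range of another. The log2 fold change was 9.79 ± 0.07 in inhibition against control and -1.45 ± 0.04 in spermidine against inhibition. Without Igkc the other 145 segments took 0.0022% of counts in control, 0.259% in inhibition and 0.142% in spermidine libraries, so the order of the groups does not rest on this gene.

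The lambda locus of mouse is small and holds a few constant regions, each served by its own joining segment. Iglc1 was at 0.0607 to 0.268 CPM in control, at 185, 176 and 201 CPM in inhibition and at 153, 169 and 170 CPM in spermidine libraries. Iglc2 was at 43.6, 49.9 and 49.5 CPM in inhibition and 12.7, 13.1 and 14.0 CPM in spermidine libraries. Iglc3 was at 55.3, 56.6 and 52.4 CPM in inhibition and 11.4, 9.08 and 9.63 CPM in spermidine libraries. Inhibition libraries lay above spermidine libraries for each of the 3 genes, with a narrow gap for Iglc1. With spermidine Iglc2 fell by 1.85 ± 0.08 and Iglc3 by 2.44 ± 0.08 on the log2 scale. Iglc1 changed by -0.19 ± 0.05 (edgeR adjusted p = 0.0037), and that direction turned under total-count scaling (0.070, adjusted p = 0.21).

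As shares of lambda constant TPM, Iglc1 went from 67.4% ± 1.58 in inhibition to 88.8% ± 1.17 in spermidine libraries, Iglc2 from 12.7% ± 0.990 to 5.50% ± 0.277 and Iglc3 from 19.9% ± 1.26 to 5.67% ± 0.918. Kappa constant TPM was 12.7 ± 0.248 times lambda constant TPM in inhibition, 6.96 ± 0.166 times in spermidine and 6.81 ± 0.558 times in control libraries. The control ratio rests on 11 to 15 lambda constant counts per library. The kappa to lambda ratio of the inhibition libraries (12.5 to 13.0) lay above that of every spermidine library (6.77 to 7.07). By contrast, light to heavy constant TPM was 17.8 ± 0.887 in inhibition and 18.4 ± 0.542 in spermidine libraries, which overlap, and 0.963 ± 0.169 in control libraries.

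**Figure D3:**
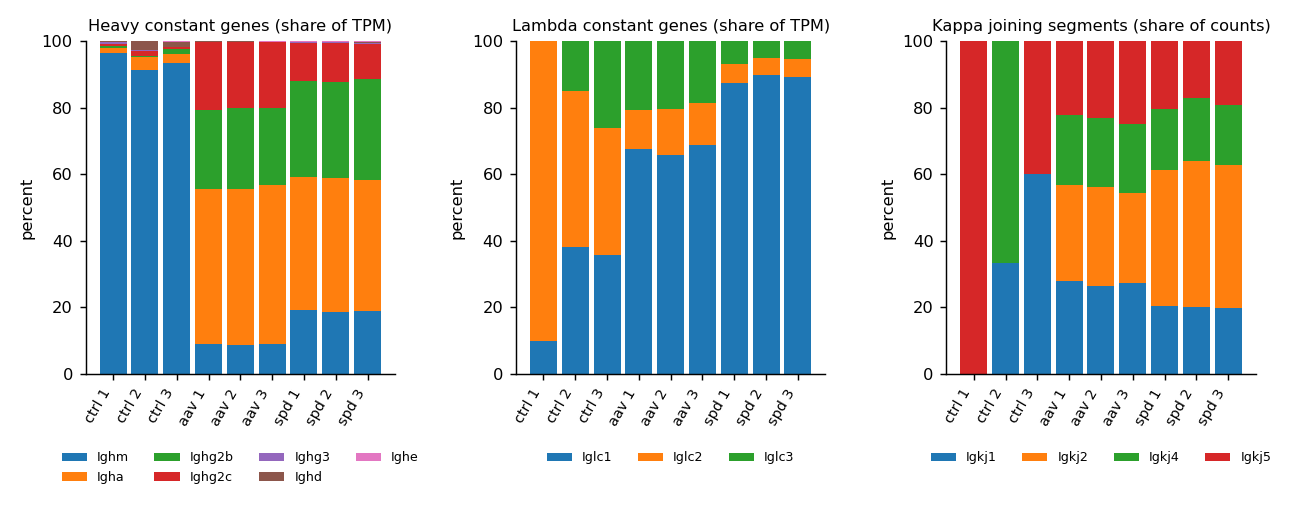
Share in percent of each heavy constant gene (left, of TPM), lambda constant gene (middle, of TPM) and kappa joining segment (right, of counts) in each of the 9 libraries. Ighm fills the control bars on the left, Iglc1 and Igkj2 are larger in spermidine than in inhibition bars, and the control bars in the middle and on the right rest on a few counts.

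Variable segments encode most of the antigen-binding domain, and those of the kappa locus were the most abundant. The 84 kappa variable segments summed to 53 to 54 counts in each control library, 24220 to 37630 in inhibition and 11540 to 16800 in spermidine libraries. At least 1 count was seen for 22 to 24 of the 84 segments in control, 82 to 83 in inhibition and 81 to 82 in spermidine libraries. Igkv6-15 was the most abundant by mean level, at 154, 158 and 158 CPM in inhibition and 75.5, 79.5 and 77.9 CPM in spermidine libraries, with 0 to 0.182 CPM in control. Igkv8-21 had no count in any control library and was at 113, 122 and 113 CPM in inhibition and 75.8, 79.1 and 74.8 CPM in spermidine libraries. Against a floor of 3 counts over the control group, Igkv8-21 was at least 2114-fold higher in inhibition and at least 1395-fold higher in spermidine libraries.

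Other abundant kappa segments were also at 0 in all controls. Igkv8-30 was at least 2186-fold higher in inhibition and at least 914-fold higher in spermidine libraries. Igkv6-23 was at least 1659-fold higher in inhibition (89.9 to 93.1 CPM) and at least 295-fold higher in spermidine libraries (15.2 to 17.9 CPM). Igkv9-124 was at 66.5, 69.0 and 63.5 CPM in inhibition and 17.2, 18.5 and 15.9 CPM in spermidine libraries. Relative to inhibition alone, Igkv6-23 fell by 2.49 ± 0.06, Igkv9-124 by 1.94 ± 0.06, Igkv8-30 by 1.25 ± 0.05, Igkv6-15 by 1.01 ± 0.04 and Igkv8-21 by 0.60 ± 0.04 on the log2 scale with spermidine. The drop thus ran from 0.60 to 2.49 among these abundant segments, with standard errors of at most 0.06.

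In control the few kappa variable counts came from other segments. The most frequent were Igkv8-27, Igkv6-20 and Igkv19-93, named after their values were seen, at 0.310 to 0.546, 0.303 to 0.429 and 0.268 to 0.425 CPM. Igkv6-20 shares 98.6% of its sequence with Igkv6-29.

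Heavy variable segments had far fewer counts than kappa ones. The 38 rows summed to 12 to 17.6 counts in control, 568 to 885 in inhibition and 467 to 695 in spermidine libraries. Ighv9-3 was at 3.56, 5.36 and 4.30 CPM in inhibition and 1.25, 1.76 and 1.27 CPM in spermidine libraries (log2 fold change -1.63 ± 0.20). Ighv1-77 went the other way, from 2.21, 2.82 and 2.45 CPM in inhibition to 3.55, 4.19 and 4.48 CPM in spermidine libraries (0.68 ± 0.16, edgeR adjusted p = 0.0015). Neither pair of groups overlaps. Ighv9-2 was at 1.30 to 2.52 CPM in inhibition and 2.62 to 3.37 CPM in spermidine libraries (0.63 ± 0.22, edgeR adjusted p = 0.024). That call was lost with DESeq2 (adjusted p = 0.11) and without inhibition library 2 (0.055), inhibition library 3 (0.12) or spermidine library 2 (0.11). Ighv1-82 was at 2.25 to 3.20 CPM and 2.30 to 2.82 CPM, which overlap, and was not called (-0.06 ± 0.19, adjusted p = 0.79; the sign turned under total-count scaling, 0.20).

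Of 18 tested heavy variable segments 6 were lower and 3 higher with spermidine, with a median of -0.38, a share of lower calls near the 28.9% over all genes tested. Of 66 tested kappa variable segments 54 were lower and 8 higher, with a median of -1.79. The difference between the loci was not tested, and the heavy segments rest on fewer counts. Heavy variable TPM was 0.222 ± 0.0161 of heavy constant TPM in inhibition and 0.440 ± 0.0222 in spermidine libraries, which do not overlap. The same ratio for kappa was 0.627 ± 0.0610 and 0.721 ± 0.0337, and the lowest spermidine library (0.683) lay within the inhibition range (0.569 to 0.691). Many heavy variable genes have no row here, so the heavy ratio covers the listed segments alone.

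In the lambda locus all 3 listed variable segments fell with spermidine. Iglv1 was at 180, 185 and 180 CPM in inhibition and 107, 113 and 114 CPM in spermidine libraries (log2 fold change -0.71 ± 0.04). Iglv2 was at 11.2 to 11.7 CPM and 3.83 to 4.98 CPM (-1.37 ± 0.11), and Iglv3 at 4.2 to 4.67 CPM and 1.33 to 1.99 CPM (-1.44 ± 0.18). The groups do not overlap for any of the 3. Iglv1 TPM was 10.99 ± 0.446 times that of Iglv2 and Iglv3 together in inhibition and 17.3 ± 1.56 times in spermidine libraries. The variable and constant segments with the number 1 therefore both took a larger share of their class in the spermidine group.

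Joining segments are so short that their TPM is inflated, so counts and CPM are used for them. All 10 were tested, and 9 were lower and 1 higher in spermidine against inhibition (all genes tested, 28.9% and 29.1%). Among the kappa joining segments shown above, Igkj2 was at 30.1, 32.7 and 32.8 CPM in inhibition and 18.7, 22.4 and 23.0 CPM in spermidine libraries (log2 fold change -0.59 ± 0.07). Igkj1, Igkj4 and Igkj5 fell by 1.61 ± 0.08, 1.35 ± 0.09 and 1.49 ± 0.10 on the log2 scale. As a share of kappa joining counts Igkj2 was 28.8, 29.7 and 27.2% in inhibition and 41.2, 43.9 and 43.1% in spermidine libraries, while Igkj1 was 27.2% ± 0.750 and 19.97% ± 0.310. The groups do not overlap for Igkj1 or Igkj2.

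Of the lambda joining segments, Iglj1 was the one that rose, from 4.67, 5.69 and 6.85 CPM in inhibition to 9.35, 9.78 and 10.1 CPM in spermidine libraries (0.75 ± 0.12, edgeR adjusted p = 8.6e-05). Iglj3 fell from 0.650 to 0.799 CPM in inhibition to 0.111 to 0.121 CPM in spermidine libraries (-2.58 ± 0.42). Neither had a count in control. Iglj1 made up 88.4% ± 2.97 of lambda joining counts in inhibition and 98.8% ± 0.0949 in spermidine libraries. Over the heavy joining segments, Ighj1 to Ighj4, log2 fold changes ran from -1.37 to -0.68, on 35 to 246 summed counts per segment and group.

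Which kappa variable segments were used was similar among the inhibition libraries and among the spermidine libraries, and less so between these groups. Across the 84 segments, log2(CPM + 0.1) correlated between libraries at Pearson's r of 0.990 to 0.992 within inhibition, 0.981 to 0.987 within spermidine and 0.848 to 0.876 between a library of each. Within control, on 53 to 54 counts per library, it was 0.629 to 0.688. These correlations are across segments, which share their library and are not replicates. For the 65 segments with enough counts, a chi-squared statistic per degree of freedom for unequal use was 1.15 among the inhibition libraries and 1.43 among the spermidine libraries, where 1 is what counting alone gives, and 205 between the summed groups. For heavy variable segments the correlations were 0.924 to 0.943 within inhibition, 0.857 to 0.909 within spermidine and 0.691 to 0.790 between a library of each, on far fewer counts. For segments with 100 to 1000 counts the median coefficient of variation was 5.51% in inhibition libraries, beside 5.39% from counting, and 7.11% beside 6.69% in spermidine libraries. Other genes of that level had 5.87% beside 6.04% and 5.57% beside 6.001%. With 3 libraries such a median falls below the counting value where counting is the only spread. Whether either set exceeded counting at this level was therefore not judged from these coefficients. The median chi-squared statistic per degree of freedom, which allows for the counts, was 1.33 for segments and 1.01 for other genes in inhibition. In spermidine libraries it was 1.74 and 0.925. By that measure the segments at this level varied more than other genes in both groups, a difference that was not tested. Segments with 1000 to 5000 counts varied more than counting gives, at 3.35% beside 2.05% in inhibition and 2.82% beside 2.40% in spermidine libraries. Other genes with 1000 to 5000 counts had 2.95% beside 2.28% and 2.73% beside 2.31%.

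The number of kappa segments in use was similar in both groups. In inhibition 9 to 10 segments held 50% of kappa variable counts and 36 held 90%, and in spermidine libraries 9 held 50% and 34 to 35 held 90%. The largest share, that of Igkv6-15 or Igkv8-21, was 10.1 to 10.6% in inhibition and 12.1 to 12.2% in spermidine libraries. Igkv8-21 took 7.64% ± 0.123 of kappa variable counts in inhibition and 11.9% ± 0.203 in spermidine, and Igkv6-23 took 6.02% ± 0.0572 and 2.51% ± 0.181. Igkv14-126, which lies among the shown sequences, took 0.767% ± 0.0521 and 4.51% ± 0.265.

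The animals behind each library are not given, so differences in segment use between treatments and between animals cannot be told apart. A small set of segments was higher in the spermidine than in the inhibition group, while most of the locus was lower. By size of change the first 3 were Igkv4-79 (log2 fold change 3.72 ± 0.65), Igkv14-100 (3.40 ± 0.56) and Igkv2-112 (3.28 ± 0.43). They were rare. Igkv4-79 was at 0 to 0.05 CPM in inhibition and 0.43 to 0.564 CPM in spermidine libraries, and Igkv2-112 at 0.0615 to 0.166 CPM and 0.941 to 1.45 CPM. Igkv4-79 and Igkv14-100 were also the 2 tested segments not called in inhibition against control (edgeR adjusted p = 0.14 and 0.056). In that comparison Igkv14-100 was called without inhibition library 3, which has no count of it (adjusted p = 0.025).

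Igkv12-41 had more counts than these, 81 in inhibition and 844 in spermidine libraries. Igkv12-44, 95.7% identical to it, had 3892 and 1267 counts. Reads may have been shared between the 2 rows, so the level of Igkv12-41 stays uncertain. Igkv12-41 had no count in control and was at 1.23, 1.54 and 1.2 CPM in inhibition and 11.9, 12.3 and 12.9 CPM in spermidine libraries (log2 fold change 3.20 ± 0.13, edgeR adjusted p = 3.5e-11). Its near neighbour in sequence, Igkv12-44, was at 65.5, 62.2 and 66.4 CPM in inhibition and 18.3, 18.8 and 18.4 CPM in spermidine libraries (-1.80 ± 0.05). Igkv14-126 rose from 11.1, 12.9 and 10.9 CPM to 30.2, 29.1 and 27.5 CPM (1.31 ± 0.07), and Igkv14-111 fell from 26.4, 24.6 and 25.2 CPM to 6.65, 6.14 and 5.98 CPM (-2.01 ± 0.08). The 2 segments of each pair went in opposite directions in libraries that do not overlap. Igkv4-78 fell by 1.40 ± 0.32, against the rise of Igkv4-79.

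The 12 segments higher with spermidine also comprised Igkv8-16 (2.88 ± 0.18), Igkv4-58 (2.51 ± 0.23), Ighv11-2 (1.94 ± 0.45) and Igkv12-46 (0.33 ± 0.07), besides Ighv1-77, Ighv9-2 and Iglj1 described above. Ighv11-2, a segment known from the B-1 cell antibodies that bind phosphatidylcholine, was at 0.123 to 0.166 CPM in inhibition and 0.509 to 0.775 CPM in spermidine libraries. These 4 were named after their values were seen. The largest falls were those of Igkv1-133 (-3.89 ± 0.38), Igkv8-18 (-3.36 ± 0.40) and Igkv4-90 (-2.82 ± 0.17). Igkv1-133 went from 1.97, 2.29 and 2.45 CPM to 0.282, 0.0783 and 0.0553 CPM, and Igkv4-90 from 9.34, 10.8 and 9.60 CPM to 1.73, 1.56 and 0.775 CPM. No inhibition library overlaps a spermidine library for these segments.

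**Figure D4:**
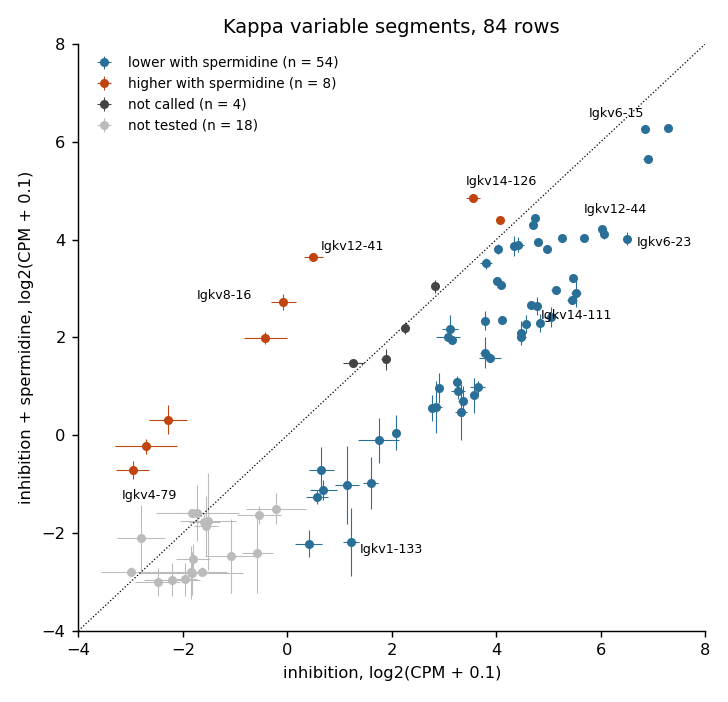
Mean log2(CPM + 0.1) of the 84 kappa variable segments in the 3 inhibition libraries (x axis) and the 3 spermidine libraries (y axis), with SD bars and a dotted line of equal level. Most points (54 segments called lower) lie under the line, and 8 called higher, among them Igkv12-41 and Igkv14-126, lie above it.

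Families of kappa variable segments were described by their share of kappa variable counts. The Igkv4 family, the largest with 24 rows, took 18.7% ± 0.337 of kappa variable counts in inhibition and 9.79% ± 0.225 in spermidine libraries. Of its 17 tested members 15 were lower and 2 higher, beside 28.9% and 29.1% of all genes tested. The Igkv8 family took 20.1% ± 0.462 and 28.5% ± 0.420, although 7 of its 8 members were lower and 1 higher in level (all genes tested, 28.9% and 29.1%). The Igkv6 family took 19.7% ± 0.356 and 19.8% ± 0.495, which overlap. The Igkv12 family went from 5.47% ± 0.279 to 8.14% ± 0.169 and the Igkv14 family from 2.45% ± 0.0639 to 5.61% ± 0.331. Members of a family share sequence, so their rows are not independent.

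Along the kappa locus the share of the segments nearest the constant region and, less so, of the farthest was larger in the spermidine group. The 21 segments nearest Igkc, 22.9 to 583 kb away, held 33.1% of summed kappa variable CPM in inhibition and 41.0% in spermidine libraries. The next 21 held 29.8% and 25.6%, the following 21 held 16.7% and 11.2%, and the farthest 21, up to 3171 kb away, held 20.5% and 22.3%. Among tested segments the median log2 fold change was -0.77 in the nearest set and -2.25, -2.06 and -1.94 in the others. Much of the larger share of the nearest set came from Igkv8-21 and Igkv6-15. Their shares of kappa variable counts went from 7.64% to 11.9% and from 10.3% to 12.1%. The 29 segments on the plus strand held 19.9% and 22.6% of the summed CPM.

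**Figure D5:**
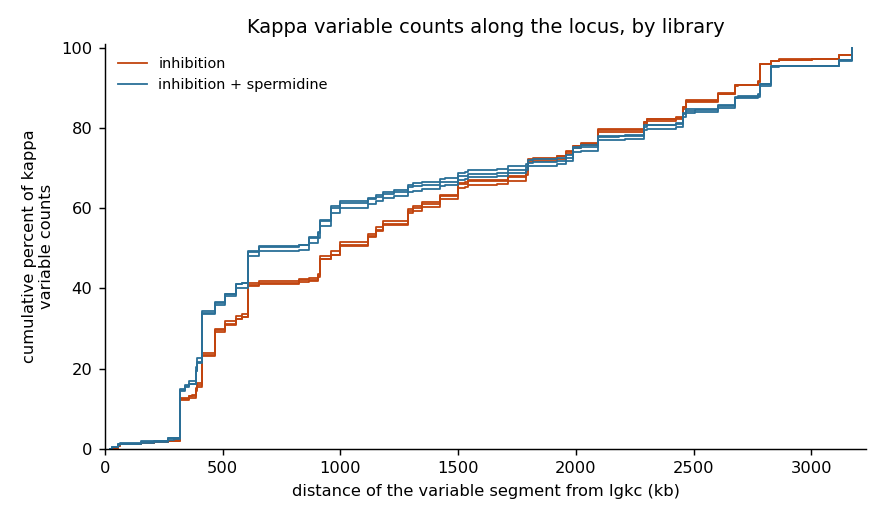
Cumulative percent of kappa variable counts (y axis) against distance from Igkc in kb (x axis), with 1 line for each inhibition and spermidine library. The lines of a group nearly coincide, and the spermidine lines are higher over much of the nearer part of the locus.

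Genes that act with the immunoglobulin chains were given by lists of markers. Of 12 plasma cell genes 9 were tested, and in inhibition against control 8 were higher and 0 lower (all genes tested, 36.2% and 36.1%), and in spermidine against inhibition 0 were higher and 6 lower (29.1% and 28.9%). Jchain, which links IgA and IgM into polymers, averaged 0.805 CPM in control, 579 in inhibition and 194 in spermidine libraries (log2 fold change 9.51 and, spermidine against inhibition, -1.58 ± 0.04). Mzb1, a chaperone of antibody assembly, averaged 0.219, 7.61 and 2.40 CPM. Xbp1, a transcription factor of secretory cells, averaged 56.9, 141 and 98.8 CPM. Prdm1, a regulator of the plasma cell state, averaged 0.230, 0.770 and 0.438 CPM and was not called between the last 2 groups (edgeR adjusted p = 0.086). Irf4, another such regulator, averaged 0.0546, 0.491 and 0.505 CPM, and Sdc1, the plasma cell surface protein syndecan, 0.279, 1.24 and 1.84 CPM, neither called with spermidine against inhibition (edgeR adjusted p = 0.87 and 0.058). Tnfrsf17, Derl3 and Pou2af1 did not pass the filter. The summed level of the 12 genes was 168 to 180 CPM in control, 897 to 918 in inhibition and 384 to 397 in spermidine libraries, and none was at 0 in all libraries of a group. Fkbp11 (95.1, 145 and 71.6 CPM on average) and Xbp1 made up most of the control sum, and Jchain most of the inhibition sum. In spermidine against control 6 of the 9 tested were higher and 2, Fkbp11 and Txndc5, lower (all genes tested, 41.0% and 37.1%).

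Of 14 genes of pro-B and pre-B cells, 10 of 12 tested were higher and 1 lower in inhibition against control, and 3 were higher and 6 lower in spermidine against inhibition, beside the same shares over all genes tested (36.2% and 36.1%, then 29.1% and 28.9%). Dntt, which adds bases at heavy chain joins, averaged 1.38 CPM in control, 51.8 in inhibition and 67.4 in spermidine libraries. Igll1, part of the surrogate light chain, averaged 1.71, 9.24 and 6.41 CPM, and Vpreb3 averaged 1.33, 7.71 and 3.67 CPM. Rag2 averaged 1.17, 2.64 and 3.48 CPM, while Rag1 (0.0351 to 0.361 CPM in the group means) and Pax5, a factor that fixes B cell identity (0.0139 to 0.105 CPM), did not pass the filter. Cd79a and Cd79b, the signalling chains of the B cell receptor, averaged 5.17 and 81.1 CPM in inhibition, and 0.683 and 58.0 CPM in control libraries. The summed level of the list was 92.3 to 97.2 CPM in control, 200 to 205 in inhibition and 208 to 215 in spermidine libraries.

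Of 13 mature B cell genes 11 were tested, and 3 were higher and 4 lower in inhibition against control, near the shares over all genes tested (36.2% and 36.1%). In spermidine against inhibition 5 were higher and 1 lower (29.1% and 28.9%). Their summed level was 339 to 349 CPM in control, 247 to 254 in inhibition and 322 to 329 in spermidine libraries. Most of that sum came from the antigen presentation genes Cd74 (160, 118 and 170 CPM on average) and H2-Ab1 (120, 51.0 and 79.2 CPM). The 3 genes that rose with inhibition were Ms4a1, Bank1 and Cd37, by 1.38 ± 0.33, 2.10 ± 0.27 and 0.85 ± 0.05 on the log2 scale. Ms4a1, a surface protein of mature B cells, averaged 0.485 CPM in control, 1.24 in inhibition and 1.33 in spermidine libraries. The summed levels of the plasma cell and neutrophil lists ordered the groups as the segments did, and their part in the results above was not tested.

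The 2 members outside the chain loci went separate ways. Rbpj, the transcription factor of Notch signalling, was at 184, 173 and 165 CPM in control, 42.3, 45.6 and 44.8 CPM in inhibition and 33.2, 30.6 and 32.5 CPM in spermidine libraries. It fell by 1.97 ± 0.05 on the log2 scale in inhibition against control and by a further 0.47 ± 0.05 with spermidine (log2 fold change -0.47). The groups do not overlap. Rbpjl, its relative, did not pass the filter and was at 0.282 CPM or less in every library.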

How the data were processed

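Polyadenylated RNA of sorted HSCs was sequenced in 9 libraries. Estimated counts by gene were deposited by the authors, and so, in another table, were TPM values (abundance relative to transcript length and depth), per the file headers. Per the submitters' processing notes, the build was mm10 and the tools were STAR 2.6.1d, Trim Galore 0.6.2, edgeR 3.24.3 and HTSeq 0.10.0, with no role given for any of them. The deposited estimated counts are whole to within 1e-06 in 48.2% of cells, so a model may have shared out reads that fit several genes, which bears on near-identical segments. No strand-specific step is stated in the labels. The smallest summed count of a listed gene is 5.

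Estimated counts were rounded and tested in R 4.3.3 with edgeR 4.0.16 (quasi-likelihood test, TMM, default filter by group, all 9 libraries in 1 fit, 14461 of 19454 genes kept), with Benjamini-Hochberg adjustment over all genes tested and a threshold of 0.05. The test was tried on simulated data. Shares and ratios have no test, since the members were chosen with results known, and 3 libraries against 3 cannot go below an exact p of 0.1. Correlations used log2(CPM + 0.1). Intervals for ratios on 1 to 3 control counts are exact at 95% and cover counting error only, as PCR copies are not independent molecules. Coordinates and sequences came from GENCODE M21, which matched all 146 segments.

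The members and gene lists were chosen with earlier results of these data known. Named were all constant and joining members, the 4 most abundant variable members of each locus, the 3 largest rises and falls of each comparison among variable members, and genes of the lists. Any other segment is said in the text to have been chosen after its values were seen. Same-numbered libraries of different groups were not paired: their deviations correlated at -0.0365 to 0.0526. Alternatives were other scalings and filters, DESeq2 1.42.0, limma 3.58.1 on log2(TPM + 1) and log2(TPM + 0.1), a replicate block, the 2 compared groups alone and leaving out each library.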

Additional observations from a re-analysis of the deposited data

How the results depend on the processing

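Counts of segments called kept within 1.5 times of those reported under every alternative run. With each library left out in turn, 105 to 110 segments were higher in inhibition against control, 79 to 84 lower and 11 to 12 higher in spermidine against inhibition, and 107 to 111 higher in spermidine against control. With a replicate block the counts were 105 higher, 81 lower and 12 higher, and 107 higher, so the block changed no count, and the libraries share only a number. With limma on log2(TPM + 0.1) 63 segments were lower and 14 higher in spermidine against inhibition. Direction turned for Iglc1 in that comparison under total-count scaling (0.070), limma on log2(TPM + 1) (0.11) and on log2(TPM + 0.1) (0.11), and for Ighv1-82 under the same 3 (0.20, 0.27 and 0.31) and without inhibition library 2 (0.14, the values with 1 library left out running from -0.17 to 0.14). Ighm lost its call there under total-count scaling (-0.070) and both limma fits (-0.038 and -0.039), as did Igkv6-15 (-0.70) and Iglv1 (-0.44) under limma on log2(TPM + 0.1). The cause was not tested. As a share of TPM in place of counts, the 146 segments took 0.00672% in control, 3.99% in inhibition and 2.34% in spermidine libraries, a unit in which the very short joining segments weigh more. Without Igkc, an alternative chosen after seeing the data, the count shares were 0.0022%, 0.259% and 0.142%. Of the values for named segments, 514 kept their direction and side of the threshold and 3 gained a call in inhibition against control, 504 kept both, 9 lost a call and 7 turned in spermidine against inhibition, and 516 kept both in spermidine against control. Of the marker list counts, 729 stayed within 1.5 times and 69 did not. In the control libraries depth limits most segments, 80 of which had no count.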
